A study of Rattus norvegicus with 6 samples.

Results

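The genes described here encode the mostly cytosolic, nuclear and mitochondrial machinery of the heat shock proteins HSP70, HSP90 and HSP60, with their partner proteins. They were chosen by symbol among the protein-coding genes of the read count table: numbered Hspa, Hsph, Hspd, Hsp90, Dnaja, Dnajb, Dnajc and Cct genes, the Bag genes, and Tcp1, St13 and Stip1. Bag3 and the endoplasmic reticulum (ER) stress genes Hspa5, Hsp90b1, Dnajb9, Dnajb11 and Dnajc3 were left out. At least 5 of the genes kept encode proteins located in the ER. The rule used no measured value and found 70 of the 18746 genes in the table. These were 9 HSP70 genes, 3 HSP110 genes, 2 HSP90 genes, the HSP60 gene, 39 genes of J-domain proteins, 9 genes of the chaperonin CCT, 5 Bag genes and the co-chaperone genes St13 and Stip1. Hspa1a and Hspe1 were not analysed here.

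HSP70 proteins bind exposed hydrophobic stretches of unfolded proteins in a cycle of ATP hydrolysis. J-domain proteins deliver clients and start the hydrolysis, nucleotide exchange factors such as the HSP110 and BAG proteins release the client, and the co-chaperone HOP passes some clients on to HSP90, on which many kinases and hormone receptors depend. The ring-shaped chaperonins CCT in the cytosol and HSP60 in mitochondria fold proteins inside a closed cavity, and actin and tubulin are the best known clients of CCT. A subset of these genes is induced through heat shock factor 1 when unfolded proteins build up, and chaperones of this kind are studied in neurons because of protein aggregates.

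The study used cells labelled PC12, a line from a rat adrenal pheochromocytoma, grown in RPMI-1640 medium with fetal bovine serum. In the siNQO1 group the cells were transfected to knock down NQO1, an NAD(P)H-dependent quinone reductase, and in the siCtrl group they received a control, both by lipofection. The methods call the reagents siRNAs, whereas the sample labels name an shRNA and a control plasmid, and a harvest at 48 h is stated for RT-qPCR only. Each group held 3 samples, and polyadenylated RNA of all 6 was sequenced. The samples of a group are called biological replicates in the paper, with no word on whether each was a culture of its own, and the p-values cover the variation among these samples. With 3 samples against 3, the smallest two-sided p of an exact permutation test is 0.1. The tests reported are therefore those of a model fitted across all genes, the quasi-likelihood test of edgeR on the read counts, with Benjamini-Hochberg adjusted p under 0.05 as the threshold for a call. Levels are given in FPKM, fragments scaled to transcript length and to the number of mapped reads, as the authors calculated them, and allow genes of different length to be compared.

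Libraries held between 28873824 and 39467230 reads in genes. Nqo1 was at 80.8, 75.2 and 77.7 FPKM in siNQO1, against 369, 321 and 345 FPKM in siCtrl, a log2 fold change of -2.13 ± 0.066 (SE, adjusted p = 1.54e-06). siCtrl replicate 2 stood apart. On the first principal component, with 44.4% of the variance, it lay at -5.08, closer to the siNQO1 libraries (-19.6 to -12.1) than to siCtrl replicates 1 and 3 (32.2 and 20.7). It was also alone on the second component (21.1% of the variance), at -29.0, while the other libraries lay between 0.477 and 12.0. The mitochondrial share of its reads, 6.40%, was close to the 6.01 to 6.53% of siNQO1 and above the 4.25% and 5.19% of siCtrl replicates 1 and 3. Results that rest on this library are given with and without it. Of 12 markers of chromaffin and PC12 cells, 9 were in the table and only Scg2 averaged over 1 FPKM, at 108 to 119 FPKM in siNQO1 and 165 to 175 FPKM in siCtrl. The catecholamine enzyme gene Th was at 0.04 to 0.07 FPKM in siNQO1 and 0.06 to 0.09 FPKM in siCtrl. The 6 Schwann and glial markers summed to 383 to 390 FPKM in siNQO1 and 428 to 492 FPKM in siCtrl, led by Sox10 and S100b. The defining markers of the labelled cell type were thus near 0, and the part of cell identity in the results below was not tested. In bulk RNA, fewer cells of a type and less RNA per cell cannot be told apart.

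Transcripts of most of these chaperones differed little between siNQO1 and siCtrl, and how many passed, and in which direction, depended on siCtrl replicate 2. Of the 70 genes, 66 had enough reads to be tested, 2 were higher in siNQO1 (St13 and Dnajc18), 9 were lower (Dnajb2, Dnajc27, Dnajc11, Dnaja2, Dnajb1, Cct2, Cct8, Hsp90ab1 and Bag1) and 55 did not pass. Without siCtrl replicate 2, 15 were higher and 16 were lower. The 4 untested genes were Hspa12a, Hspa12b, Dnajc5b and Dnajc5g. The 11 calls are 16.7% of the genes tested, and 12.6% of all 12420 genes tested were called. Higher calls made up 3.03% of the chaperone genes and 5.27% of all genes, and lower calls 13.6% and 7.38%. The share called lay near the background, the share of lower calls above it and that of higher calls below it, and none of these differences was tested. None of them differed by a fold over 2 at an adjusted p under 0.05, as 54 genes of the table (0.435%) did, and at an unadjusted p under 0.05 by edgeR there were 28 chaperone genes (42.4%), against 29.0% of all genes tested. All siNQO1 libraries lay on 1 side of all siCtrl libraries in 29 of the 66 genes (43.9%), as in 34.2% of all genes tested. The median log2 fold change was -0.026, against 0.0099 over all genes tested, and the median of its absolute size was 0.166, against 0.156.

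**Figure D1:**
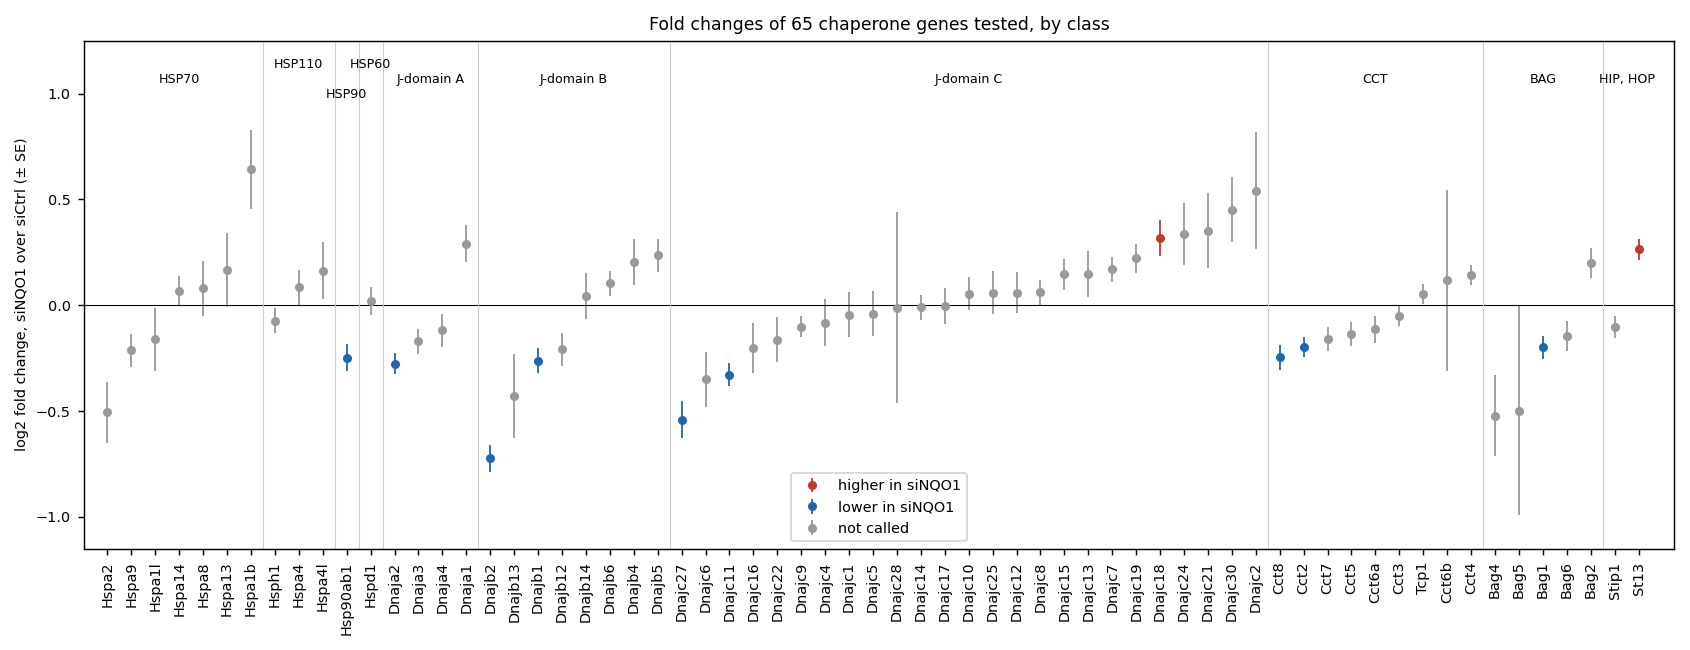
Log2 fold changes of siNQO1 over siCtrl (points, with SE as bars) for 65 chaperone genes by class; Hsp90aa1, at -2.27 with an SE of 1.35, lies outside the range drawn. Most points lie near 0, Dnajb2 is the lowest call at -0.72, and the 2 higher calls are Dnajc18 at 0.32 and St13 at 0.26.

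The genes spanned a wide range of levels. Averaged over all 6 libraries, 13 genes lay above 100 FPKM, 29 between 10 and 100, 20 between 1 and 10, and 8 at 1 FPKM or lower. The FPKM of all 70 genes summed to 3551, 3611 and 3646 in siNQO1, against 3959, 3833 and 3737 in siCtrl. Every siNQO1 sum was below every siCtrl sum, and the means were 3603 ± 48.2 in siNQO1 and 3843 ± 111 in siCtrl (SD, n = 3 each). No test was made on these sums. The sum of the HSP90 genes was 677 ± 13.1 FPKM in siNQO1 and 813 ± 54.8 FPKM in siCtrl, and that of the CCT genes was 1360 ± 23.1 FPKM in siNQO1 and 1446 ± 51.3 FPKM in siCtrl. The J-domain genes summed to 821 ± 8.34 FPKM in siNQO1 and 828 ± 35.5 FPKM in siCtrl, with a spread in siCtrl larger than the difference. Mean sums were higher in siNQO1 for the HSP110 genes (83.5 FPKM, against 82.3 in siCtrl) and HSP60 (126, against 125). The same held for the Dnajc genes (475, against 460) and for St13 with Stip1 (299, against 289). Sums of the HSP70, Dnaja, Dnajb and Bag genes were lower in siNQO1. Hsp90ab1 alone had means of 677 FPKM in siNQO1 and 810 FPKM in siCtrl.

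**Figure D2:**
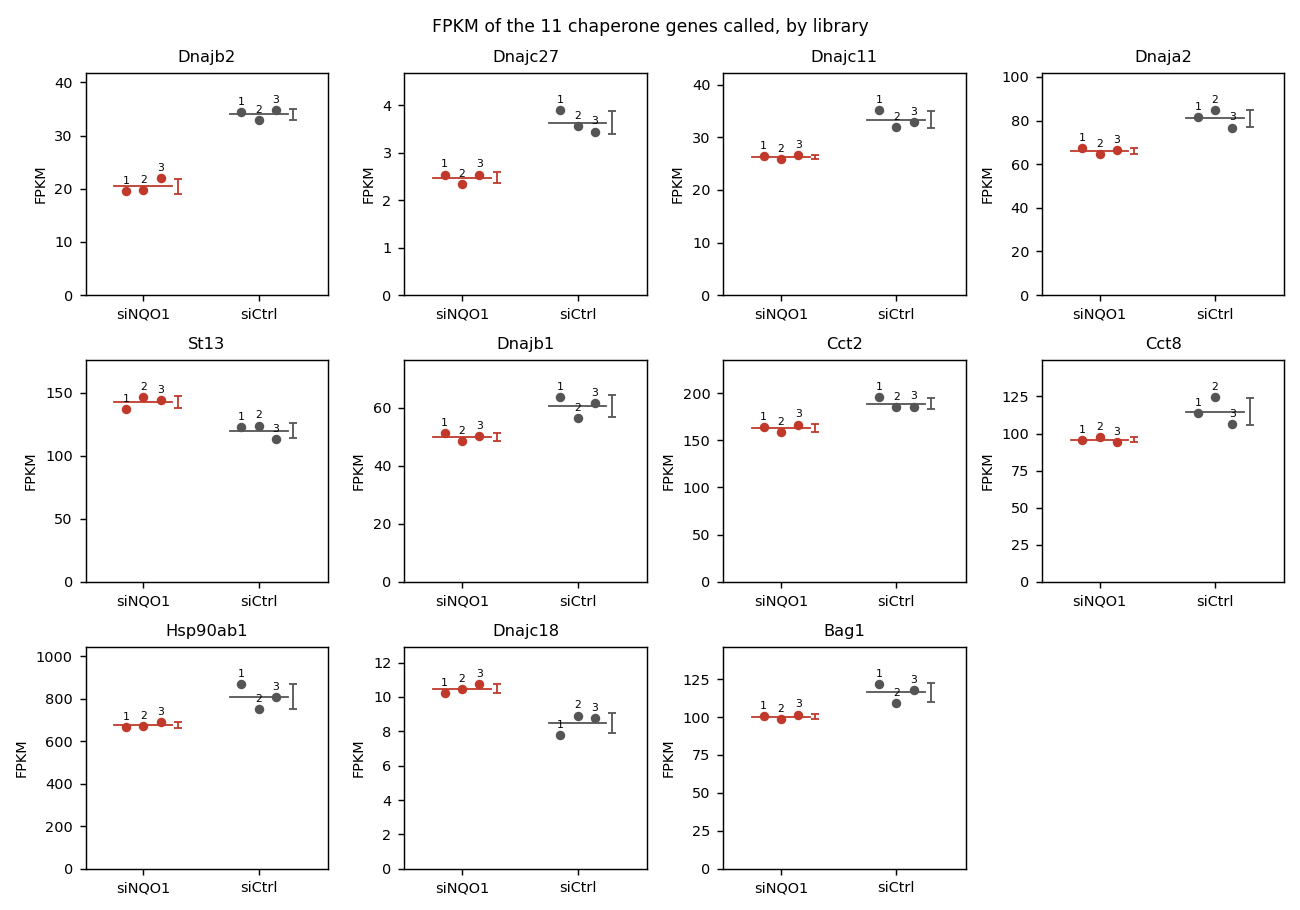
FPKM of the 11 called chaperone genes in each library (points numbered by replicate), with siNQO1 left of siCtrl, the mean as a line and the SD as a bar (n = 3 each). In each panel the 3 siNQO1 points lie wholly to 1 side of the 3 siCtrl points, above them for St13 and Dnajc18 and below them for the other genes.

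The HSP70 genes gave no call by edgeR among the 7 tested, with 3 at an unadjusted p under 0.05. The Hspa8 row, described below, cannot be ranked by level. Among the others Hspa9, which encodes the mitochondrial HSP70 (mortalin) that pulls proteins into the matrix, had the highest mean FPKM. It had 31.7, 34.2 and 35.6 FPKM in siNQO1, against 41.7, 42.7 and 34.5 FPKM in siCtrl. siCtrl replicate 3 lay within the siNQO1 range, so the groups overlapped, and the log2 fold change was -0.21 ± 0.078 (SE, adjusted p = 0.111). Over the 6 fits that each left out 1 library its adjusted p ran between 0.0379 and 0.282, and the lowest value was that without siCtrl replicate 3.

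Hspa1b encodes a stress-inducible HSP70 that is scarce in unstressed cells. Its level was 1.17, 0.95 and 1.22 FPKM in siNQO1, against 0.79, 0.58 and 0.80 FPKM in siCtrl. Only uniquely mapped reads were counted, so any reads shared with Hspa1a, which was not analysed here, would be missing from this level. All siNQO1 libraries lay above all siCtrl libraries, but the log2 fold change of 0.64 ± 0.19 (SE) missed the threshold at an adjusted p of 0.0561. The exact test and the likelihood ratio test of edgeR put it below the threshold, at 0.0274 and 0.0256. Hspa2, an HSP70 best known from male germ cells, pointed the other way, with 1.16, 1.14 and 1.42 FPKM in siNQO1 against 1.83, 1.59 and 1.92 FPKM in siCtrl. Its groups did not overlap either, and its log2 fold change was -0.51 ± 0.15 (SE, adjusted p = 0.0548). Without siCtrl replicate 2 Hspa2 was lower in siNQO1 at an adjusted p of 0.0125, the exact and likelihood ratio tests gave 0.0423 and 0.0397, and over the fits without 1 library the value ran between 0.0125 and 0.176.

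Hspa8, the constitutive HSP70 (HSC70), is among the abundant messages of most cells, yet its row held 1.88, 1.63 and 1.85 FPKM in siNQO1 and 1.79, 1.57 and 1.76 FPKM in siCtrl. The groups overlapped, and the log2 fold change was 0.081 ± 0.13 (SE, adjusted p = 0.721). The row lies on chromosome 5, whereas RefSeq places Hspa8 on another chromosome and names 33 Hspa8 pseudogenes. Since only uniquely mapped reads were counted, this row cannot be taken as the level of HSC70. Hspa14, a ribosome-associated relative, averaged 26.9 ± 2.32 FPKM in siNQO1 and 25.9 ± 0.719 FPKM in siCtrl (SD, n = 3 each), at a log2 fold change of 0.069 (adjusted p = 0.558). Hspa1l and Hspa13 did not pass the test either, at log2 fold changes of -0.16 and 0.17.

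HSP110 proteins exchange the nucleotide on HSP70, and none of their 3 genes passed by edgeR, nor did any reach an unadjusted p under 0.05. Hspa4 (APG-2), the most abundant, had 44.3, 45.6 and 44.2 FPKM in siNQO1, against 39.6, 49.2 and 38.8 FPKM in siCtrl. The siNQO1 libraries lay close together between siCtrl replicate 2 on the high side and siCtrl replicates 1 and 3 on the low side. The log2 fold change was 0.085 ± 0.084 (SE, adjusted p = 0.547), and 0.20 without siCtrl replicate 2 (adjusted p = 0.00254). Hspa4l (APG-1) also had siCtrl replicate 2 above and the other siCtrl libraries below siNQO1, with a log2 fold change of 0.16 with an adjusted p of 0.457, and of 0.34 with an adjusted p of 0.00398 without siCtrl replicate 2. Hsph1 (HSP105), the heat-inducible member, had 30.4, 28.6 and 30.1 FPKM in siNQO1, against 34.2, 30.7 and 29.8 FPKM in siCtrl. Its groups overlapped and its log2 fold change was -0.072 ± 0.060 (SE, adjusted p = 0.469).

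Heat shock factor 1 binds arrays of the unit GAA in alternating orientation, and the promoters of the chaperone genes were searched for 3 such units, which read GAANNTTCNNGAA or TTCNNGAANNTTC. These spellings are reverse complements of each other, so both strands are covered. RefSeq promoters of build GRCr8 were matched for 54 of the 70 genes, and the 250 bases before the start of transcription were searched in their 55 promoters. A match was found in 2 of them (3.64%), against 222 of all 33469 promoters (0.663%). The matched genes were Hsph1 and Hspd1, and their sequences are shown because they are the only chaperone promoters with the element. The Hsph1 element lies 36 to 24 bases before the start, in chr12:10427312-10427364 on the plus strand. In Hspd1, at chr9:64084242-64084287 on the minus strand, 2 matches overlap in a run of capitals 242 to 225 bases before the start. Both are written 5′ to 3′ along the gene, with the element in capitals.
Hsph1: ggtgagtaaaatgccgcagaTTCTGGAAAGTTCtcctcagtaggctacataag
Hspd1: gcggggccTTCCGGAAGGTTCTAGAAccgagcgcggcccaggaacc
A match is a description of the letters only, and neither gene passed the test. No sequence entry was matched for Bag4, Dnaja2, Dnajb4, Dnajc11, Dnajc12, Dnajc15, Dnajc2, Dnajc22, Dnajc24, Dnajc5b, Dnajc8, Hsp90aa1, Hspa12a, Hspa1b, Hspa8 and St13.

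Hspd1 encodes HSP60, the chaperonin of the mitochondrial matrix. It had 124, 127 and 127 FPKM in siNQO1, against 122, 139 and 115 FPKM in siCtrl. The siNQO1 libraries again lay between siCtrl replicate 2 and the other siCtrl libraries, and the log2 fold change was 0.021 ± 0.066 (SE, adjusted p = 0.867). Its sign turned without siCtrl replicate 1 (-0.023) and without siCtrl replicate 3 (-0.028). RefSeq names 20 Hspd1 pseudogenes, which can take reads from a count of unique alignments.

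Hsp90ab1, the constitutive HSP90 beta (ENSRNOG00000019834, chromosome 9), had the highest mean FPKM of the 70 genes. Whether HSC70 was more abundant cannot be said, since the Hspa8 row does not give its level. Hsp90ab1 had 667, 671 and 691 FPKM in siNQO1, against 870, 753 and 808 FPKM in siCtrl. Each siNQO1 library lay below each siCtrl library, and siNQO1 reached 83.5% of the siCtrl mean. The gene was lower in siNQO1 by the test, with a log2 fold change of -0.25 ± 0.064 (SE, adjusted p = 0.0396). Over the fits without 1 library the adjusted p ran between 2.69e-05 and 0.116. The call was lost without siNQO1 replicate 1 (0.0930), 2 (0.103) or 3 (0.0884) and without siCtrl replicate 3 (0.116).

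Hsp90aa1, the stress-responsive HSP90 alpha, behaved differently in that single libraries decided its value. It had 0.02, 0.82 and 0.91 FPKM in siNQO1, from 2, 69 and 91 reads. In siCtrl it had 0.23, 8.27 and 0.12 FPKM, from 17, 740 and 11 reads. siCtrl replicate 2 was thus far above every other library, and siNQO1 replicate 1 was the lowest. The log2 fold change was -2.27 ± 1.35 (SE, adjusted p = 0.306) with all libraries and 1.76 (adjusted p = 0.131) without siCtrl replicate 2, so no direction can be read. RefSeq names 16 pseudogenes of Hsp90aa1 and 23 of Hsp90ab1, and how reads were divided among such copies was not tested.

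J-domain proteins form the largest family here, with 37 of 39 genes tested, 1 higher and 5 lower in siNQO1, or 16.2% called against 12.6% of all genes. Dnajb2 (ENSRNOG00000019506, chromosome 9) encodes a neuron-enriched J-protein with ubiquitin-interacting motifs, which ties HSP70 clients to the proteasome. It had 19.6, 19.7 and 22.0 FPKM in siNQO1, against 34.4, 32.9 and 34.8 FPKM in siCtrl. The groups were far apart relative to their spread, and siNQO1 reached 60.0% of the siCtrl mean. Dnajb2 was lower in siNQO1 with a log2 fold change of -0.72 ± 0.064 (SE, adjusted p = 0.000501), the largest change among the called chaperone genes. It was called in each of the 6 fits without 1 library, at adjusted p between 3.85e-06 and 0.00666.

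Dnajc27 and Dnajc11 were also called in each of those fits. Dnajc27 (ENSRNOG00000003988, chromosome 6), a small GTPase of the Rab type with a J domain, had 2.54, 2.34 and 2.54 FPKM in siNQO1, against 3.90, 3.57 and 3.45 FPKM in siCtrl. Every siNQO1 library was below every siCtrl library, and the gene was lower with a log2 fold change of -0.54 ± 0.087 (SE, adjusted p = 0.00675). In RefSeq it overlaps Adcy3, whose log2 fold change was -0.33 ± 0.20 (SE, adjusted p = 0.310), and reads of the overlap could fall to either gene. Dnajc11 (ENSRNOG00000008802, chromosome 5), tied to the cristae of mitochondria, had 26.4, 25.9 and 26.7 FPKM in siNQO1, against 35.2, 32.0 and 32.9 FPKM in siCtrl. The siNQO1 libraries lay within a narrow range below all siCtrl libraries, and the gene was lower with a log2 fold change of -0.33 ± 0.055 (SE, adjusted p = 0.00739).

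Dnaja1 and Dnaja2 encode the main class A partners of cytosolic HSC70, and they pointed in opposite directions. Dnaja2 (ENSRNOG00000016251, chromosome 19) had 67.5, 64.7 and 66.4 FPKM in siNQO1, against 81.5, 84.7 and 76.8 FPKM in siCtrl. Its groups did not overlap, and it was lower in siNQO1 with a log2 fold change of -0.28 ± 0.050 (SE, adjusted p = 0.0101). The call was lost without siNQO1 replicate 2 (adjusted p = 0.0695) and without siNQO1 replicate 3 (0.0562), and the lowest value over these fits was 0.000896. Dnaja1, the most abundant J-protein transcript of class A, had 102, 110 and 99.8 FPKM in siNQO1, against 81.3, 98.6 and 77.0 FPKM in siCtrl. The groups did not overlap, although siCtrl replicate 2 came within reach of siNQO1 replicate 3. The log2 fold change of 0.29 ± 0.087 (SE) did not pass, at an adjusted p of 0.0627. It passed without siCtrl replicate 2, where it was 0.40 (adjusted p = 9.03e-05), and with all libraries by DESeq2 (0.0127), by the exact test (0.0347) and likelihood ratio test (0.0343) of edgeR and with no filter on low counts (0.0255). Over the fits without 1 library its adjusted p ran up to 0.290. Dnaja3 (TID1) of mitochondria and the stress-responsive Dnaja4 had log2 fold changes of -0.17 (adjusted p = 0.0922) and -0.12 (adjusted p = 0.355).

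Dnajb1 (ENSRNOG00000021824, chromosome 19), the classical stress-inducible HSP40, was the most abundant class B gene. It had 51.2, 48.5 and 50.3 FPKM in siNQO1, against 63.7, 56.4 and 61.5 FPKM in siCtrl. The siNQO1 libraries lay below all siCtrl libraries, with siCtrl replicate 2 the nearest. Dnajb1 was lower in siNQO1 with a log2 fold change of -0.26 ± 0.059 (SE, adjusted p = 0.0248), while the heat-inducible genes Hspa1b and Hsph1 did not pass the test. The call was lost without siNQO1 replicate 2 (adjusted p = 0.0804) or 3 (0.0623) and without siCtrl replicate 3 (0.0908), and the lowest value over these fits was 0.000176. Of the other class B genes, Dnajb4 and Dnajb5, both close relatives of Dnajb1, had log2 fold changes of 0.20 (adjusted p = 0.252) and 0.24 (adjusted p = 0.0885). Dnajb6, a suppressor of polyglutamine aggregation, was at 0.10 (adjusted p = 0.275), and the ER membrane J-proteins Dnajb12 and Dnajb14 were at -0.21 and 0.044.

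Class C was the largest class, with 25 of 27 genes tested, and its 22 genes that did not pass ran between log2 fold changes of -0.35 (Dnajc6) and 0.54 (Dnajc2). Dnajc18 (ENSRNOG00000019995, chromosome 18) was the one called higher. It had 10.2, 10.5 and 10.8 FPKM in siNQO1, against 7.79, 8.91 and 8.75 FPKM in siCtrl. The groups did not overlap, and the log2 fold change was 0.32 ± 0.085 (SE, adjusted p = 0.0435). The call sat near the threshold. It was lost without siNQO1 replicate 1 (adjusted p = 0.128), 2 (0.154) or 3 (0.160), without siCtrl replicate 1 (0.122) or 3 (0.0845), and in the exact test (0.0567) and likelihood ratio test (0.0560) of edgeR, and was 0.00751 without siCtrl replicate 2. Dnajc8, a J-protein of the spliceosome, was the most abundant of the class, with 91.5, 87.1 and 87.5 FPKM in siNQO1 against 80.8, 91.2 and 85.6 FPKM in siCtrl. Its groups overlapped, its log2 fold change was 0.061 ± 0.058 (SE, adjusted p = 0.532), and the value was -0.0032 without siCtrl replicate 1.

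Several class C genes serve single steps of the cell. Dnajc7, which binds both HSP70 and HSP90, averaged 58.7 ± 1.62 FPKM in siNQO1 and 52.8 ± 3.73 FPKM in siCtrl (SD, n = 3 each), at a log2 fold change of 0.17 (adjusted p = 0.0893). The histone chaperone gene Dnajc9 was at -0.10 (adjusted p = 0.229), and Dnajc5, the cysteine string protein of secretory vesicles, was at -0.040 (adjusted p = 0.839). Auxilin (Dnajc6), which removes clathrin coats, had 5.60 ± 0.513 FPKM in siNQO1 and 7.21 ± 1.33 FPKM in siCtrl (SD, n = 3 each), at -0.35 (adjusted p = 0.111). The mitochondrial import partners Dnajc15 and Dnajc19 were at 0.15 (adjusted p = 0.230) and 0.22 (adjusted p = 0.0747).

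CCT is a double ring of paralogous subunits that are all needed for a working particle, and its transcripts did not all point the same way. Of 9 genes tested, 2 were lower and none was higher, so that 22.2% were called against 12.6% of all genes, and the median log2 fold change was -0.11, against 0.0099 over all genes. Cct2 (ENSRNOG00000021317, chromosome 7), the beta subunit, had 164, 159 and 167 FPKM in siNQO1, against 196, 185 and 186 FPKM in siCtrl. The groups did not overlap, and the gene was lower with a log2 fold change of -0.20 ± 0.048 (SE, adjusted p = 0.0312). Cct8 (ENSRNOG00000001592, chromosome 11), the theta subunit, had 95.7, 97.8 and 94.3 FPKM in siNQO1, against 114, 125 and 106 FPKM in siCtrl. Its groups did not overlap either, with siCtrl replicate 2 the farthest from siNQO1, and its log2 fold change was -0.25 ± 0.060 (SE, adjusted p = 0.0313). Cct8 overlaps Usp16 in RefSeq, whose log2 fold change was 0.75 ± 0.30 (SE, adjusted p = 0.138).

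Both CCT calls were lost in several of the fits without 1 library. Over all such fits the log2 fold changes kept their sign, between -0.22 and -0.19 for Cct2 and between -0.29 and -0.19 for Cct8. Cct2 was no longer called without siNQO1 replicate 1 (adjusted p = 0.0579), 2 (0.0961) or 3 (0.0641) or without siCtrl replicate 3 (0.0860), and was at 0.000935 without siCtrl replicate 2. Cct8 was no longer called without siNQO1 replicate 1 (0.0968), 2 (0.115) or 3 (0.133) or without siCtrl replicate 1 (0.0608), and was at 0.00343 without siCtrl replicate 2. Among the other subunits, Cct5 (epsilon), the most abundant in siCtrl, had 211, 214 and 223 FPKM in siNQO1, against 256, 225 and 238 FPKM in siCtrl. The groups did not overlap, and the log2 fold change of -0.14 ± 0.057 (SE) did not pass with all libraries (adjusted p = 0.152), but did without siCtrl replicate 2 (0.00274). Cct4 (delta) pointed upward, with 223, 230 and 235 FPKM in siNQO1 against 216, 214 and 199 FPKM in siCtrl, again without overlap. Its log2 fold change was 0.14 ± 0.048 (SE, adjusted p = 0.0879), and its adjusted p was 0.00938 without siCtrl replicate 2. Tcp1, the alpha subunit, had 157, 169 and 167 FPKM in siNQO1, against 165, 162 and 153 FPKM in siCtrl. These overlapped, and its log2 fold change was 0.053 ± 0.049 (SE, adjusted p = 0.520). Cct7, Cct6a and Cct3 were at -0.16, -0.11 and -0.051 and did not pass, and Cct6b, a testis paralog of Cct6a, was at 0.46 ± 0.24 FPKM in siNQO1 and 0.433 ± 0.16 FPKM in siCtrl (SD, n = 3 each).

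**Figure D3:**
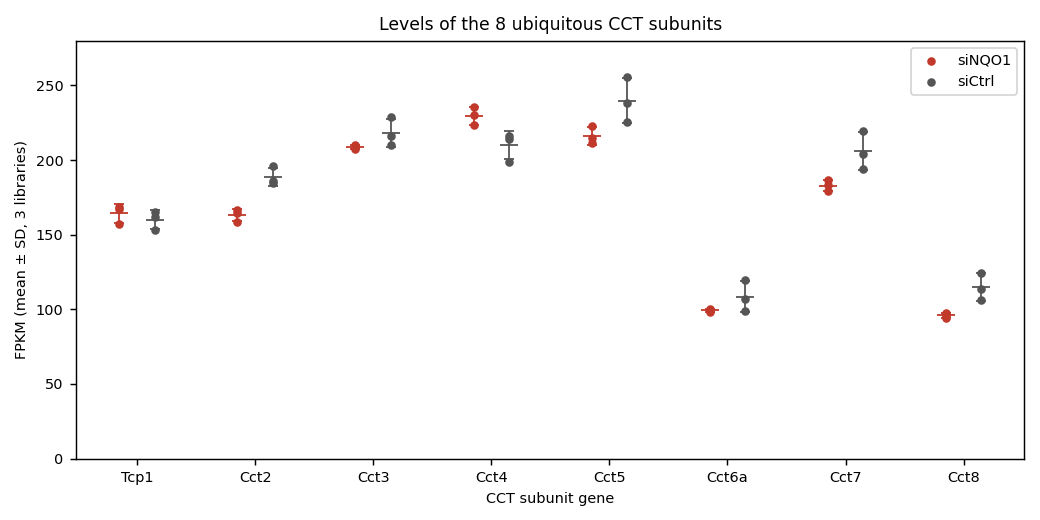
FPKM of the 8 ubiquitous CCT subunit genes in siNQO1 (red) and siCtrl (grey), with points for libraries and mean ± SD of 3. Cct2 and Cct8 lie lower in siNQO1 (means 163 and 95.9, against 189 and 115 in siCtrl), and Cct4 has its 3 siNQO1 points above its 3 siCtrl points without passing the test.

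The co-chaperones and BAG proteins set how long HSP70 holds a client. St13 (ENSRNOG00000019070, chromosome 7) encodes HIP, which stabilises the ADP-bound, client-holding form. It had 137, 146 and 144 FPKM in siNQO1, against 122, 124 and 113 FPKM in siCtrl. All siNQO1 libraries lay above all siCtrl libraries, and St13 was higher with a log2 fold change of 0.26 ± 0.050 (SE, adjusted p = 0.0119). The call was lost without siNQO1 replicate 2 (adjusted p = 0.0893) or 3 (0.0665), and the lowest value over the fits without 1 library was 0.000385. Stip1 encodes HOP, the bridge between HSP70 and HSP90, and was the more abundant of the pair. It had 157, 155 and 157 FPKM in siNQO1, against 180, 163 and 166 FPKM in siCtrl. The groups did not overlap, yet the log2 fold change of -0.10 ± 0.051 (SE) did not pass (adjusted p = 0.223), and it passed without siCtrl replicate 2 (0.0187).

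Bag1 (ENSRNOG00000008277, chromosome 5), a nucleotide exchange factor that links HSP70 to the proteasome, was the only BAG gene of 5 to be called. It had 101, 98.8 and 102 FPKM in siNQO1, against 122, 109 and 118 FPKM in siCtrl. The siNQO1 libraries lay below all siCtrl libraries, with siCtrl replicate 2 the nearest, and Bag1 was lower with a log2 fold change of -0.20 ± 0.055 (SE, adjusted p = 0.0487). This call was the weakest of the 11. It was lost without any of siNQO1 replicates 1 (adjusted p = 0.0835), 2 (0.116) and 3 (0.0902) and siCtrl replicates 1 (0.0759) and 3 (0.147), with upper-quartile scaling (0.0582), with no filter on low counts (0.0546), and by the exact test (0.0554), the likelihood ratio test (0.0549) and limma voom (0.0525), and was 0.000559 without siCtrl replicate 2. Bag2, an inhibitor of the ubiquitin ligase CHIP, was at 0.20 ± 0.071 (SE, adjusted p = 0.105), and Bag6, of the pathway for tail-anchored proteins, was at -0.14 ± 0.072 (SE, adjusted p = 0.225). Bag4 was at -0.52 (adjusted p = 0.113) on a level of 1.02 ± 0.224 FPKM in siNQO1 and 1.49 ± 0.0814 FPKM in siCtrl (SD, n = 3 each).

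Replicates of siNQO1 varied less than those of siCtrl. The SD of log2 CPM was smaller in siNQO1 in 50 of the 66 chaperone genes (75.8%), with medians of 0.0709 in siNQO1 and 0.106 in siCtrl. Over all genes tested the same held in 73.1%, so the chaperone genes did not stand out.

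Leaving out siCtrl replicate 2 changed the number of calls more than any other library did. Without it 31 of the 66 chaperone genes passed (47.0%), 15 higher and 16 lower in siNQO1, against 33.3% of 12615 genes tested over the table. All 11 genes called with 6 libraries were among them. The 13 that were higher only without this library were Dnajc2, Dnaja1, Dnajc21, Dnajc7, Hspa4, Hspa4l, Hspa13, Dnajc13, Dnajc19, Cct4, Dnajc24, Dnajc30 and Dnajb4. The 7 that were lower only without it were Hspa2, Cct7, Cct5, Dnajb12, Bag6, Dnaja3 and Stip1. siCtrl replicate 2 lay above both other siCtrl libraries in 27 chaperone genes and below both in 25. It was the siCtrl library nearest to the siNQO1 mean in 30 of 66 (45.5%), against 43.8% of all genes tested.

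**Figure D4:**
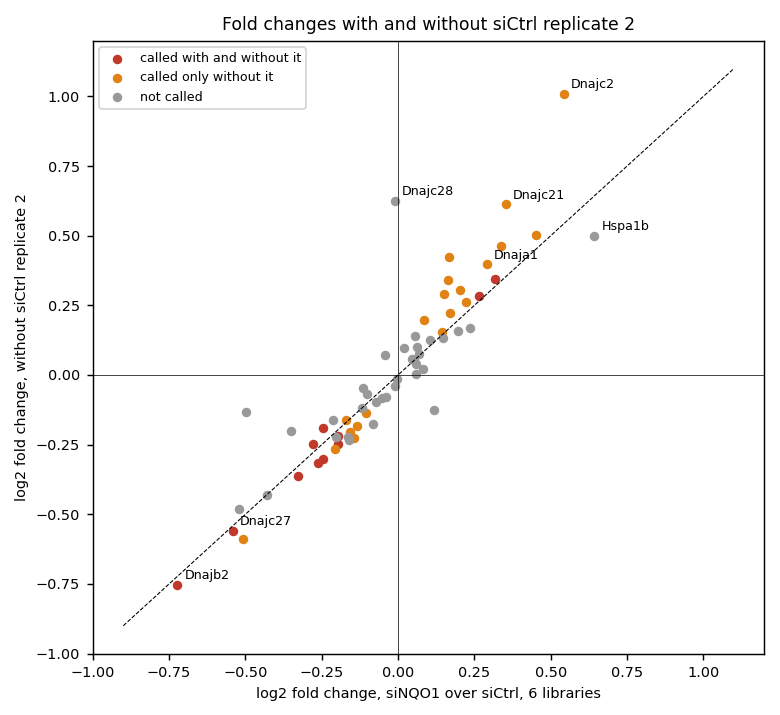
Log2 fold changes of siNQO1 over siCtrl with all 6 libraries (x axis) and without siCtrl replicate 2 (y axis), 1 point per tested chaperone gene except Hsp90aa1 (-2.27 and 1.76), with the line of equal values dashed. The 20 genes called only without it include Dnajc2, which moves up to 1.01, while Dnajb2 keeps a value near -0.75.

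The library lay over 0.5 log2 CPM above the mean of the other siCtrl libraries in 6 chaperone genes (9.09%), against 11.0% of all genes tested. Deviations downward were not counted. Besides Hsp90aa1 the 6 genes were Dnajc2, Dnajc21, Hspa13, Dnajc28 and Bag5. They were chosen for a high siCtrl replicate 2, so higher fold changes without that library follow from the choice. The adjusted p given without it carry the same limit and are no separate result. Dnajc2 (MPP11), a J-protein at the ribosomal exit tunnel, had 21.7, 22.5 and 21.4 FPKM in siNQO1, against 9.41, 23.7 and 12.3 FPKM in siCtrl. siCtrl replicate 2 was the highest of all libraries, while siCtrl replicates 1 and 3 were well below siNQO1. The log2 fold change was 0.54 ± 0.28 (SE, adjusted p = 0.233) with all libraries and 1.01 (adjusted p = 1.35e-05) without siCtrl replicate 2, the single chaperone gene that then passed a fold of 2. Dnajc21, a J-protein of ribosome maturation, had 9.17, 8.54 and 8.27 FPKM in siNQO1, against 5.71, 9.15 and 5.67 FPKM in siCtrl. siCtrl replicate 2 lay among the siNQO1 libraries, and the log2 fold change was 0.35 (adjusted p = 0.228), and 0.61 (adjusted p = 0.000285) without siCtrl replicate 2. Hspa13 (STCH), a microsomal HSP70 relative, had 7.84, 7.78 and 6.84 FPKM in siNQO1, against 5.24, 8.99 and 5.95 FPKM in siCtrl. Here too siCtrl replicate 2 was the highest library, and the log2 fold change was 0.17 (adjusted p = 0.575) with it and 0.42 (adjusted p = 0.00265) without it.

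**Figure D5:**
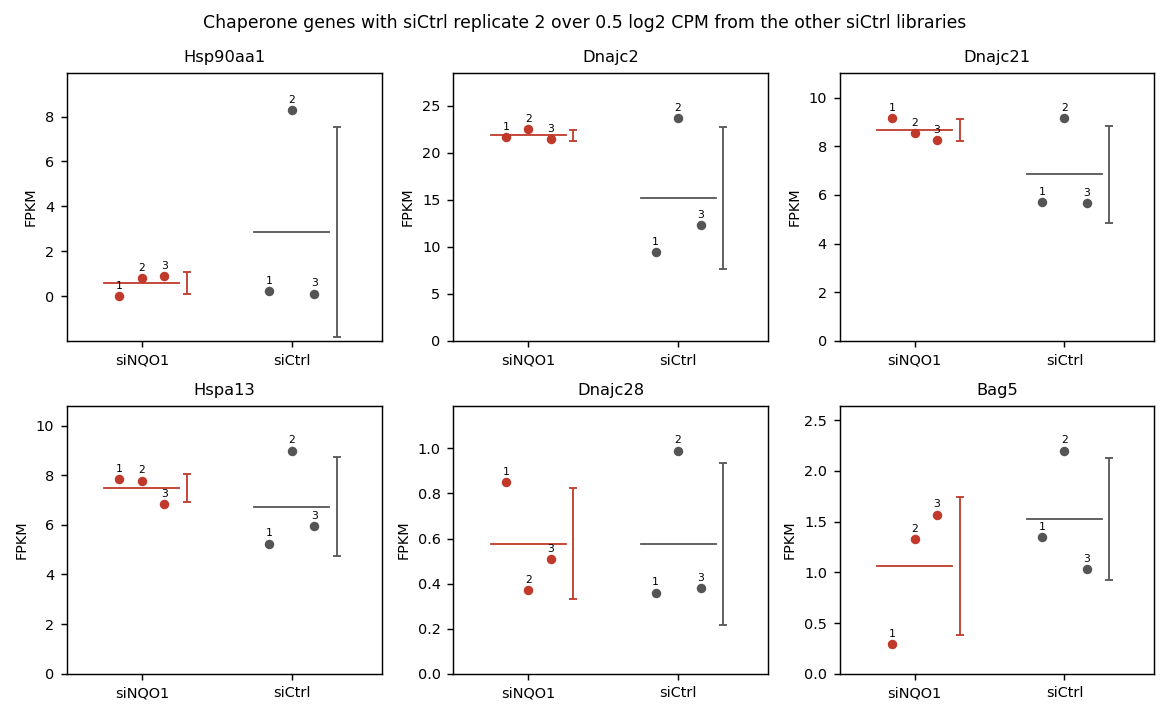
FPKM by library (points numbered by replicate, line for the mean, bar for the SD, n = 3 each) of the 6 chaperone genes in which siCtrl replicate 2 lay over 0.5 log2 CPM above the mean of the other siCtrl libraries. The genes were chosen for a high siCtrl replicate 2, so its place as the highest siCtrl point in each panel is no separate result. For Hsp90aa1 siCtrl replicate 2 stands at 8.27 FPKM while no other library exceeds 0.91 FPKM.

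Genes that work with these chaperones were read from lists chosen with earlier results known. None of the 4 tested genes of heat shock factors and their binding proteins passed by edgeR (0 at an unadjusted p under 0.05; Hsf2bp was higher at an adjusted p of 0.0432 without siCtrl replicate 2), and Hsf1 averaged 22.9 FPKM in siNQO1 and 21.6 FPKM in siCtrl (log2 fold change 0.094, adjusted p = 0.333). Of 30 tested HSP90 co-chaperone genes 5 were lower and none higher (16.7% called, against 12.6% of all genes). Their median log2 fold change was -0.043. Without siCtrl replicate 2, 9 were lower and 6 higher, in a fit that called 33.3% of all genes. The 5 lower with all libraries were the phosphatase gene Ppp5c (-0.23, adjusted p = 0.0217), Nudcd3 (-0.44, adjusted p = 0.0435), Ttc4 (-0.27, adjusted p = 0.0354), Sgta (-0.23, adjusted p = 0.0452) and Stub1 (-0.22, adjusted p = 0.0429). Stub1 encodes the ubiquitin ligase CHIP. Each of these 5 calls was lost in at least 1 of the fits without 1 library, with highest adjusted p between 0.0790 and 0.162. Of the 6 prefoldin subunits, which hand actin and tubulin to CCT, only Pfdn4 was higher (0.28, adjusted p = 0.0193) and none was lower, and without siCtrl replicate 2, Vbp1 and Pfdn5 were lower as well. None of 3 phosducin-like genes, 6 tubulin folding cofactors and 4 other nucleotide exchange factors passed by edgeR, with 1 of each list at an unadjusted p under 0.05. Without siCtrl replicate 2, Pdcl3 (adjusted p = 0.0133), Tbcd (0.0136), Arl2 (0.0118) and Sil1 (0.00876) were lower and Tbce (0.0352) was higher. In a list of 11 tested genes, mitochondrial chaperones and proteases with the small heat shock protein partner Hspbap1 besides, Hscb and Hspbap1 were higher, and the mitochondrial HSP90 gene Trap1 (-0.27, adjusted p = 0.0184) and the protease gene Spg7 (-0.46, adjusted p = 0.00273) were lower. Without siCtrl replicate 2, 3 genes of this list were higher and 5 lower. A further list of 7 genes mixed nascent-chain binding genes with others. In it Naca was higher, while Sgta and Nomo1 were lower, with and without siCtrl replicate 2. Sgta also stood in the list of HSP90 co-chaperone genes. The calls of Pfdn4, Hscb, Hspbap1, Trap1 and Naca were each lost in at least 1 of the fits without 1 library. Their highest adjusted p by edgeR were 0.114, 0.162, 0.119, 0.0729 and 0.156, in that order. For Spg7 (0.0185) and Nomo1 (0.0498) the highest value stayed under 0.05. With all libraries the calls were 16.7% of the prefoldin list and 36.4% of the list with the mitochondrial genes. Of the mixed list with Naca they were 42.9%. Of all genes 12.6% were called, and no test compared the lists with other genes.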

How the data were processed

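Polyadenylated RNA of 6 samples was sequenced with a stranded kit. The authors dropped reads holding over 2 ambiguous bases, trimmed the others and mapped them to the RGSC6 rat genome with TopHat2 (bcl2fastq and edgeR also stand in the submitters' processing notes). Deposited read counts are whole, unnormalized numbers of uniquely mapped reads per gene. Deposited FPKM values are the authors' own. Which tool counted reads, and whether by strand, is not given in the sources used here, and overlapping genes may therefore share reads. Genes were kept by filterByExpr, scaled by TMM and tested with glmQLFit and glmQLFTest (R 4.3.3, edgeR 4.0.16), with Benjamini-Hochberg adjustment over all genes tested. The test was checked on simulated counts. Libraries were treated as unpaired, since the deviations of same-numbered libraries correlated at -0.038, 0.16 and 0.057.

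The chaperone genes, lists and tests were chosen with earlier results of these data known. Full values are given for every gene called, for 13 genes listed by role and for the gene with the highest mean FPKM of each class. These were 23 in all, and other genes were picked with their values in view. The 50 bases after each start site were left out of the motif search. Alternatives were other scalings and filters, the exact and likelihood ratio tests, DESeq2 1.42.0, limma 3.58.1 (voom, and log2(FPKM + 1) or log2(FPKM + 0.1)), a block for replicate number, and fits without each library.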

Additional observations from a re-analysis of the deposited data

How the results depend on the processing

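Most results depended on which libraries were included. Over the 6 fits that each left out 1 library, the genes called in the whole table numbered 518 to 4200, against 1571 with all libraries, and those past a fold of 2 numbered 18 to 300, against 54. The chaperone genes called numbered 3 to 31, against 11. Those higher in siNQO1 numbered 0 to 15, against 2, those lower 3 to 16, against 9, and those past a fold of 2 numbered 0 to 1. The highest counts were those without siCtrl replicate 2 (31, of which 15 higher and 16 lower), and the lowest counts of calls those without siNQO1 replicate 2 or 3 (3 each). Fits with 5 libraries also have fewer residual degrees of freedom. Among other settings, chaperone genes called higher numbered 4 with no filter on low counts and 4 by DESeq2, Dnaja1 and Dnajc30 being the genes gained in both. Genes of the whole table past a fold of 2 numbered 28 with a CPM over 1 in at least 3 libraries, 88 by the exact test, 94 by the likelihood ratio test, 26 by DESeq2 and 9 by limma on log2(FPKM + 1), and the cause was not tested. With the replicate number as a block, which the samples' labels share without pairing them, 1350 genes and 10 chaperone genes were called (3 higher, 7 lower), Dnaja1 (adjusted p = 0.0247) and Dnajc30 (0.0448) were gained and Bag1 (0.0596), Dnajc18 (0.0635) and Hsp90ab1 (0.0550) were lost. Across 413 settings of the 23 genes with full values, 358 kept direction and side of the threshold, 39 lost the call, 12 gained it and 4 turned sign: Hsp90aa1 without siCtrl replicate 2 (1.76), Dnajc8 without siCtrl replicate 1 (-0.0032) and Hspd1 without siCtrl replicate 1 (-0.023) or 3 (-0.028), none of which was called. Without 1 library their values ran between -2.84 and 1.76 for Hsp90aa1, -0.0032 and 0.0999 for Dnajc8 and -0.028 and 0.096 for Hspd1. Under every setting run, fits without 1 library included, the median log2 fold change over all genes tested stayed between -0.0124 and 0.0224. The 4 genes not tested had too few reads for a test.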
